A study of Mus musculus with 8 samples.

Results

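Glycolysis and hypoxia response genes are 32 mouse genes taken by symbol from a list of glucose transport, glycolysis, lactate and hypoxia response genes. All 32 were found among the 38355 genes of the deposited count tables. The series holds RNA sequencing of 8 whole colon tumours, 1 per mouse, from mice treated with azoxymethane, a colon carcinogen. In 4 Trp53ΔIEC mice the tumour suppressor gene Trp53 is lost in intestinal epithelial cells, and in 4 Trp53ΔIECAktE17K mice the same loss is joined by AktE17K, an activated form of the kinase AKT. Both groups thus share the Trp53 loss and the carcinogen, and no untreated or Trp53-competent tissue is among them. The sources used here give neither the promoter that drives the deletion nor the strain and age of the mice. The series title names AKT-dependent NOTCH3 activation in mesenchymal colorectal cancer as the subject, so the comparison of the groups asks what active AKT adds to Trp53-deficient tumours.

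Glycolysis turns glucose into pyruvate in a chain of cytosolic enzymes, and lactate dehydrogenase turns pyruvate into lactate, which monocarboxylate transporters carry out of the cell. AKT signalling is known to promote glucose uptake and glycolysis, in part through glucose transporters and hexokinase. Under low oxygen the prolyl hydroxylases no longer mark the HIF alpha subunits for destruction, and HIF then raises transcription of many glycolytic genes and of genes for blood vessel growth, pH control and mitochondrial turnover. HIF activity is controlled mainly at the protein level, which RNA counts do not show.

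Levels are given as CPM, the reads of a gene per 1000000 reads of the library size after scaling between libraries. Between 18572180 and 26268547 reads per tumour were assigned to genes. All 32 members passed the filter on low counts, and 29 had at least 10 CPM in every tumour. Calls rest on edgeR's quasi-likelihood test with Benjamini-Hochberg adjustment over all 16539 genes tested, at an adjusted p under 0.05. The tumours are whole tissue, in which fewer cells of a type and less RNA per cell cannot be told apart. As a check of the labels, Trp53 had 20.8 to 25.8 CPM in Trp53ΔIEC and 24.8 to 37.1 CPM in Trp53ΔIECAktE17K tumours, and Akt1 383.0 to 430.2 and 338.2 to 409.6 CPM. Neither passed (edgeR adjusted p = 0.407 and 0.669), and counts per gene show neither a deletion limited to epithelial cells nor the E17K change, so they do not check the genotype. Markers of other cell types differed between the groups. Of 10 smooth muscle markers 7 rose in Trp53ΔIECAktE17K tumours, with a summed level of 396.2 to 671.5 CPM in Trp53ΔIEC and 1213 to 1977 CPM in Trp53ΔIECAktE17K tumours. Of 10 fibroblast markers 4 rose, with sums of 2460 to 3847 and 4582 to 7650 CPM. Of the same 10, 1 went the other way at an unadjusted p under 0.05 (log2 fold change -0.84). Of 11 epithelium markers, such as Epcam, Cdh1 and Krt8, none was called by edgeR or limma-voom, and DESeq2 called 1 as lower. An unadjusted p under 0.05 towards lower levels was reached by 4. The log2 fold change was below 0 for 10 and above 0 for 1, with a median of -0.48. Their sums were 9847 to 12336 CPM in Trp53ΔIEC and 6369, 8477, 5861 and 11931.5 CPM in Trp53ΔIECAktE17K replicates 1 to 4. The part of these marker differences in the levels of the members was not tested.

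Among the 32 members 1 gene rose, Pfkm, the muscle-type phosphofructokinase, 2.06-fold, and none fell. Over all genes tested 4.2% were called, 3.44% as higher and 0.756% as lower, and 1 of 32 is 3.12%, so the share of members that rose was near that of all genes. Towards lower levels no member reached an unadjusted p under 0.05 (8.07% of all genes) and none had its groups apart (5.88% of all genes). The other tools also called no member lower, against 3.7% of genes by DESeq2 and 0.695% by limma-voom. Of the 31 members that were not called, 8 had an unadjusted p under 0.05 towards higher levels, namely Slc2a1, Slc2a3, Aldoa, Pgk1, Eno1, Ldha, Ldhb and Adm. With Pfkm that is 28.1% of members, against 12.8% of all genes. The log2 fold change was above 0 for 26 of the 32 members, against 51.1% of all genes, and the members' median was 0.43 against 0.01 over all genes. The 4 Trp53ΔIECAktE17K tumours lay above all 4 Trp53ΔIEC tumours in 6 members (18.8%), against 8.34% of all genes. The median of the mean levels was 141.9 CPM for members and 25.6 CPM for all genes tested. These shares were not matched for level. DESeq2 called 6 members higher (Pfkm, Ldhb, Slc2a1, Adm, Ldha and Eno1), against 8.31% of the genes it tested, and limma-voom called Pfkm, against 2.61% of genes.

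**Figure D1:**
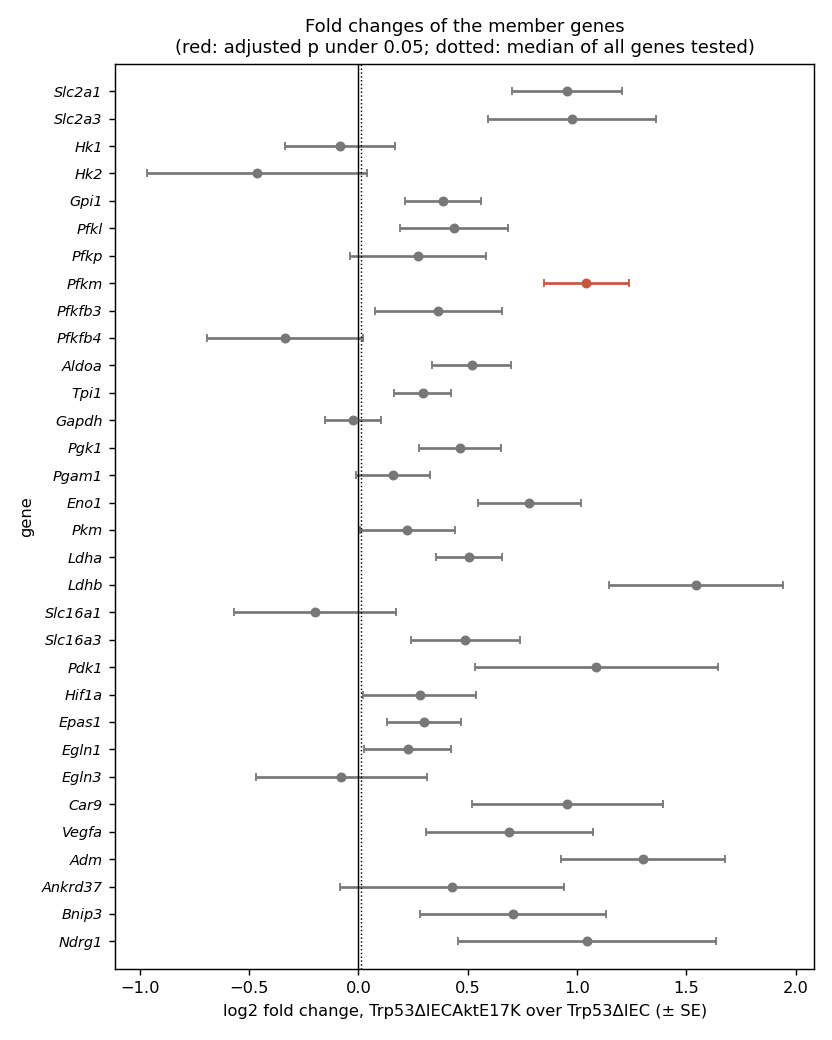
Log2 fold change of each of the 32 members (points) with its standard error (bars), Trp53ΔIECAktE17K over Trp53ΔIEC, in order of role from glucose uptake to hypoxia response. Pfkm, in red at 1.04, is the member that passed the test, and 26 of the 32 points lie to the right of 0.

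HIF binds short promoter motifs with the core ACGTG or GCGTG. The promoters of the 4 members with the smallest p that hold such a motif are shown, chosen by that p. Of these genes edgeR called Pfkm. Each is the 250 bases before a RefSeq gene start (GRCm38.p6), 5′ to 3′ on the gene's strand, with every ACGTG or GCGTG on either strand in capitals (CACGT and CACGC on the printed strand, which may overlap the others).
Pfkm: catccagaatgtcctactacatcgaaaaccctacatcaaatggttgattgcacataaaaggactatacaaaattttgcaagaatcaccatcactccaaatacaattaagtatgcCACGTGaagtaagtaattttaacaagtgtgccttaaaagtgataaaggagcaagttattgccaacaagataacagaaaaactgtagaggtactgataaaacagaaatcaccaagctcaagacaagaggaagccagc
Ldhb: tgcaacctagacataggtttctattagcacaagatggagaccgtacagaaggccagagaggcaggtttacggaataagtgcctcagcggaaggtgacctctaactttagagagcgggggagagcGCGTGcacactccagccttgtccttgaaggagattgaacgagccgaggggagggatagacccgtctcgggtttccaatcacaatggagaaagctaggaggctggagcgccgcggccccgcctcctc
Slc2a1: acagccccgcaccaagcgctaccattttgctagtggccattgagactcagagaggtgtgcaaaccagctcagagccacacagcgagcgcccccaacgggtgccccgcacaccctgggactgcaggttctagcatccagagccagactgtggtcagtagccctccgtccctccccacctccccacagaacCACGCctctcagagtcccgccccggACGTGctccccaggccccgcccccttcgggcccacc
Adm: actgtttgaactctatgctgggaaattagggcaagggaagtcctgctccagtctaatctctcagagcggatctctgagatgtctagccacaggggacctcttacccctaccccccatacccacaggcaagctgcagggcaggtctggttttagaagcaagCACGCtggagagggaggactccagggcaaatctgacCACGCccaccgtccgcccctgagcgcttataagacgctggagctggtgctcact
The Pfkm stretch lies at chr15:98092339-98092588 on the plus strand and is the first of 4 listed starts, 3 of which hold a match. The Ldhb stretch lies at chr6:142507958-142508207 on the minus strand, that of Slc2a1 at chr4:119108495-119108744 on the plus strand and that of Adm at chr7:110627407-110627656 on the plus strand. Among these, Slc2a1 holds matches that begin 61 and 36 bases before the start, Adm 90 and 54, Ldhb 126, and Pfkm an overlapping pair at 136 and 135. Of the 32 members 29 had an entry in the promoter table, and 27 of these (93.1%) held a match in at least 1 entry, against 41.5% of all 27025 genes with an entry. Counted by entry, 34 of 42 member promoters (81.0%) and 38.6% of all 32851 promoters held one. Many members are known HIF targets, and base composition was not matched, so these shares are a description. A match in these letters is not a shown binding site.

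Glucose uptake was read from the transporter genes Slc2a1 (GLUT1), the basal transporter of many dividing cells, and Slc2a3 (GLUT3), a high-affinity transporter known from neurons and white blood cells. Slc2a1 (ENSMUSG00000028645, chromosome 4, 119108711 to 119137983, plus strand, mm10) had 199.4, 150.4, 164.2 and 179.5 CPM in Trp53ΔIEC replicates 1 to 4. In Trp53ΔIECAktE17K replicates 1 to 4 it had 521.0, 247.3, 249.95 and 324.8 CPM. The groups did not overlap, and replicate 1 of Trp53ΔIECAktE17K stood highest. The log2 fold change was 0.95 ± 0.25 (SE), which did not pass in edgeR (adjusted p = 0.0773), while DESeq2 gave an adjusted p of 0.0150. Slc2a3 had 6.20, 8.08, 7.26 and 4.42 CPM against 9.06, 11.03, 23.0 and 8.06 CPM. Its groups overlapped by a narrow margin, with replicate 3 of Trp53ΔIECAktE17K far above the rest, and it did not pass (log2 fold change 0.98 ± 0.38, SE, edgeR adjusted p = 0.192). Without that replicate its log2 fold change was 0.54. Of 10 macrophage markers edgeR, DESeq2 and limma-voom called none, and 1 had an unadjusted p under 0.05 towards higher levels. Their sums overlapped at 652.4 to 1479 and 578.9 to 1688 CPM. Of 10 neutrophil markers edgeR, DESeq2 and limma-voom each called 1 as higher, and 1 had an unadjusted p under 0.05 towards lower levels. The neutrophil sums were 319.6 to 591.0 and 240.3 to 992.7 CPM. The part of either list in the Slc2a3 values was not tested.

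The first steps of glycolysis trap glucose in the cell by hexokinase, isomerise it by Gpi1 and commit it by phosphofructokinase. Hk2, the inducible hexokinase of tumours, had 116.0, 432.2, 532.6 and 213.8 CPM in Trp53ΔIEC and 238.5, 188.3, 124.5 and 387.9 CPM in Trp53ΔIECAktE17K tumours. Both groups spanned more than a 3-fold range and overlapped fully (log2 fold change -0.46 ± 0.50, SE, edgeR adjusted p = 0.649). Leaving out 1 tumour moved it from -0.83 without Trp53ΔIECAktE17K replicate 4 to -0.14 without Trp53ΔIEC replicate 3. Hk1, the housekeeping hexokinase, had 167.2 ± 14.6 and 157.7 ± 56.5 CPM (mean ± SD, n = 4 each), a log2 fold change of -0.08 (edgeR adjusted p = 0.884), or 0.10 without Trp53ΔIECAktE17K replicate 3. Gpi1, the glucose-6-phosphate isomerase, had 390.6 to 432.3 CPM in Trp53ΔIEC and 426.7 to 718.9 CPM in Trp53ΔIECAktE17K tumours (edgeR adjusted p = 0.251). Pfkl, the liver-type phosphofructokinase gene, had 240.4 to 395.2 and 298.3 to 572.9 CPM, with overlap (log2 fold change 0.44 ± 0.25, SE, edgeR adjusted p = 0.355). Pfkp, the platelet-type gene, had 105.2 to 264.9 and 171.3 to 287.1 CPM, also with overlap (0.27 ± 0.31, SE, edgeR adjusted p = 0.667). Pfkfb3 and Pfkfb4 encode enzymes that make and break fructose 2,6-bisphosphate, the activator of phosphofructokinase. Pfkfb3 lay at 38.8 to 96.9 and 63.7 to 108.7 CPM and Pfkfb4 at 21.0 to 45.4 and 12.0 to 32.7 CPM. Their log2 fold changes of 0.36 and -0.34 did not pass (edgeR adjusted p = 0.516 and 0.641). Over the removals of 1 tumour the log2 fold change ran from 0.22 to 0.46 for Gpi1, 0.20 to 0.62 for Pfkl, 0.065 to 0.47 for Pfkp, 0.17 to 0.64 for Pfkfb3 and -0.59 to -0.03 for Pfkfb4, and none of these passed.

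Pfkm (ENSMUSG00000033065, chromosome 15, 98092589 to 98132451, plus strand, mm10) had 13.3, 10.2, 14.6 and 12.8 CPM in Trp53ΔIEC and 28.5, 21.2, 31.5 and 23.5 CPM in Trp53ΔIECAktE17K tumours. The groups lay well apart, with a gap between 14.6 and 21.2 CPM. Pfkm rose 2.06-fold (log2 1.04 ± 0.19, SE, edgeR adjusted p = 0.0277), from 12.7 ± 1.86 to 26.2 ± 4.70 CPM (SD, n = 4 each). Pfkm encodes the phosphofructokinase subunit of skeletal and heart muscle, which other tissues also express. Of 11 tested cardiac muscle markers 9 rose in the same libraries, and 1 had a log2 fold change below 0 (-0.40). Myh6, the heart myosin gene, had 0 to 0.223 CPM in Trp53ΔIEC and 47.6 to 57.0 CPM in Trp53ΔIECAktE17K tumours. Of the 12 markers found, 1 had 0 counts in all Trp53ΔIEC tumours, namely Myl3, which was picked out by that value. The summed cardiac markers came to 37.0 to 115.3 and 173.6 to 245.2 CPM, highest in Trp53ΔIECAktE17K replicate 4, whereas Pfkm was highest in replicate 3. The smooth muscle sums given above also lay apart, with replicate 1 highest, and the part of either marker list in the rise of Pfkm was not tested. With 1 tumour left out in turn the call held without Trp53ΔIECAktE17K replicate 2, 3 or 4. It was lost without any 1 of the Trp53ΔIEC replicates (edgeR adjusted p = 0.0629, 0.0846, 0.0689 and 0.0842 without replicates 1 to 4) or without Trp53ΔIECAktE17K replicate 1 (0.0832), with log2 fold changes of 0.94 to 1.11 across all 8 removals. Titles carry a letter of no stated meaning, which is A in Trp53ΔIECAktE17K replicates 1 and 2 and B in the other 6. With a term for it the Pfkm log2 fold change was 1.11 (edgeR adjusted p = 0.0987). As A occurs in that group only, this difference rests on Trp53ΔIECAktE17K replicates 3 and 4 against the Trp53ΔIEC tumours.

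**Figure D2:**
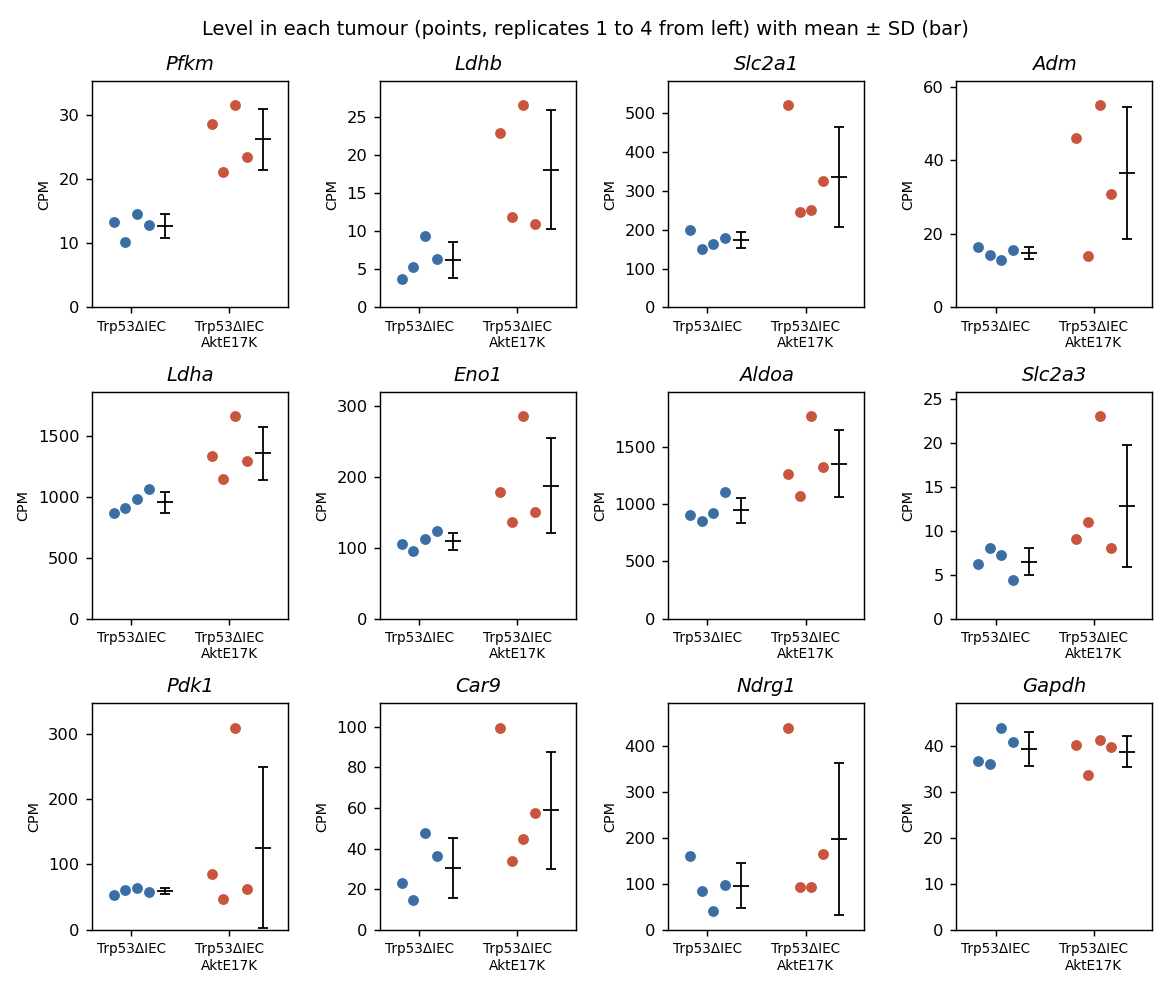
CPM in each tumour (points, replicates 1 to 4 from left to right) with the group mean ± SD (black bars) for the 8 members with the smallest p and for Pdk1, Car9, Ndrg1 and Gapdh. The Pfkm, Ldhb, Slc2a1, Ldha and Eno1 points of the groups do not overlap, and Pdk1 has 1 point at 309.2 CPM.

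The lower steps, from aldolase to pyruvate kinase, split the sugar and yield ATP and pyruvate. Aldoa, the main aldolase gene, had 906.7, 848.0, 919.3 and 1104 CPM in Trp53ΔIEC and 1257, 1069, 1763 and 1319 CPM in Trp53ΔIECAktE17K tumours. Replicate 2 of Trp53ΔIECAktE17K lay within the range of the other group (log2 fold change 0.52 ± 0.18, SE, edgeR adjusted p = 0.147). Tpi1, the triose phosphate isomerase gene, lay at 437.4 to 542.7 and at 553.4 to 702.9 CPM, without overlap but with a log2 fold change of 0.29 (edgeR adjusted p = 0.243). Eno1, the main enolase gene, had 105.2, 95.3, 112.1 and 123.7 CPM against 178.1, 136.9, 285.0 and 150.2 CPM. Its groups did not overlap, with replicate 3 of Trp53ΔIECAktE17K highest (log2 fold change 0.78 ± 0.23, SE, edgeR adjusted p = 0.108, DESeq2 adjusted p = 0.0398), and without that replicate the log2 fold change was 0.51. Pgk1, the first enzyme of the pathway that makes ATP, lay at 25.0 to 38.2 and 35.1 to 48.1 CPM (log2 fold change 0.46 ± 0.19, SE, edgeR adjusted p = 0.204). Pgam1, the phosphoglycerate mutase, lay at 12.7 to 15.5 and 14.7 to 19.2 CPM (log2 fold change 0.16, edgeR adjusted p = 0.638). Pkm, the pyruvate kinase, lay at 1104 to 1506 and 992.8 to 1998 CPM, the second range enclosing the first (log2 fold change 0.22, edgeR adjusted p = 0.607, and 0.05 without Trp53ΔIECAktE17K replicate 3).

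Gapdh, a glycolytic enzyme gene often used as a reference gene, had 36.7, 36.0, 43.9 and 40.7 CPM in Trp53ΔIEC and 40.0, 33.7, 41.2 and 39.7 CPM in Trp53ΔIECAktE17K tumours. The groups overlapped (log2 fold change -0.02 ± 0.13, SE, edgeR adjusted p = 0.941). Its sign turned without Trp53ΔIEC replicate 3 (0.01) or Trp53ΔIECAktE17K replicate 2 (0.02). These counts hold part of the Gapdh reads, because reads that align to several places were not assigned to a gene. Of the 50-base windows of the longest coding Gapdh transcript, 82.5% occur also in transcripts of other annotated genes, among them 215 pseudogenes. The share was 72.2% for Eno1, 68.0% for Pgk1, 41.5% for Pgam1, 34.4% for Pkm, 27.01% for Ldhb, 21.9% for Bnip3, 19.3% for Gpi1, 16.6% for Ldha, 13.5% for Aldoa, 7.51% for Tpi1 and 2.18% for Hif1a. It was under 1% for the other 20 members, Pfkm and Slc2a1 among them. Levels of the genes with shared windows are therefore uncertain, while the reads that were assigned come from the parts that differ.

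Pyruvate is turned to lactate by lactate dehydrogenase, of which Ldha encodes the muscle-type and Ldhb the heart-type subunit. Ldha (ENSMUSG00000063229, chromosome 7, 46841475 to 46855627, plus strand, mm10) had 869.9, 911.3, 979.5 and 1065 CPM in Trp53ΔIEC and 1333, 1148, 1662 and 1295 CPM in Trp53ΔIECAktE17K tumours. The groups did not overlap (log2 fold change 0.51 ± 0.15, SE), and the gene missed the threshold in edgeR (adjusted p = 0.106) and passed in DESeq2 (adjusted p = 0.0214). Ldhb (ENSMUSG00000030246, chromosome 6, 142490249 to 142507957, minus strand, mm10) had 3.79, 5.26, 9.44 and 6.37 CPM against 22.9, 11.9, 26.6 and 11.04 CPM. No Trp53ΔIECAktE17K tumour reached down to the Trp53ΔIEC range, and replicates 1 and 3 were the highest. Its log2 fold change of 1.54 ± 0.40 (SE) was the largest among members, and it did not pass in edgeR (adjusted p = 0.0725) but did in DESeq2 (adjusted p = 0.00374). The cardiac marker sums given for Pfkm moved in the same direction, and their part in the Ldhb difference was not tested.

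The transporter gene Slc16a3 (MCT4), known for lactate export from glycolytic cells, had 199.2, 248.9, 205.8 and 279.3 CPM in Trp53ΔIEC and 407.1, 357.1, 363.0 and 182.5 CPM in Trp53ΔIECAktE17K tumours. Replicate 4 of Trp53ΔIECAktE17K was the lowest of all 8 and the other 3 were the highest (log2 fold change 0.49 ± 0.25, SE, edgeR adjusted p = 0.307). Without that replicate the log2 fold change was 0.67 and the adjusted p 0.0524. Slc16a1 (MCT1), a transporter of lactate and of short-chain fatty acids in colonocytes, had 170.9 ± 65.6 and 149.0 ± 55.8 CPM (SD, n = 4 each, log2 fold change -0.20, edgeR adjusted p = 0.803). The sign turned without Trp53ΔIEC replicate 4 or without Trp53ΔIECAktE17K replicate 3 (0.03 in each run). Pdk1, the kinase that shuts off pyruvate dehydrogenase, had 53.8, 60.1, 64.3 and 58.4 CPM against 84.9, 47.2, 309.2 and 61.7 CPM. Replicate 3 of Trp53ΔIECAktE17K stood far above the other 7 tumours, and without it the log2 fold change was 0.14 in place of 1.09 (edgeR adjusted p = 0.308 with all tumours).

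Shares within enzyme families were set per kilobase of exon, since genes differ in length. Pfkm made up 5.60%, 5.66%, 7.498% and 6.13% of phosphofructokinase reads per kilobase in Trp53ΔIEC and 10.2%, 9.75%, 8.73% and 8.99% in Trp53ΔIECAktE17K tumours. It thus stayed the smallest of the isoforms in every tumour, and its groups did not overlap, while Pfkl held 61.9% to 83.4% and 64.3% to 79.4%. Ldhb made up 0.910% to 1.99% of lactate dehydrogenase reads per kilobase in Trp53ΔIEC and 1.77% to 3.495% in Trp53ΔIECAktE17K tumours, so Ldha held nearly all. Hk2 held 47.7% to 81.1% of the hexokinase pair in Trp53ΔIEC and 63.9% to 72.0% in Trp53ΔIECAktE17K tumours. Slc16a3 held 48.1% to 65.2% and 48.3% to 80.2% of the transporter pair. Slc2a1 held at least 95.7% of the glucose transporter pair in every tumour. The Hk2 share depended on the length used. Per kilobase of the longest transcript it was 33.1% to 70.0% in Trp53ΔIEC and 49.0% to 58.2% in Trp53ΔIECAktE17K tumours. In Trp53ΔIECAktE17K replicate 1 the larger of the hexokinase pair was then Hk1 in place of Hk2. These shares are descriptions and were not tested.

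**Figure D3:**
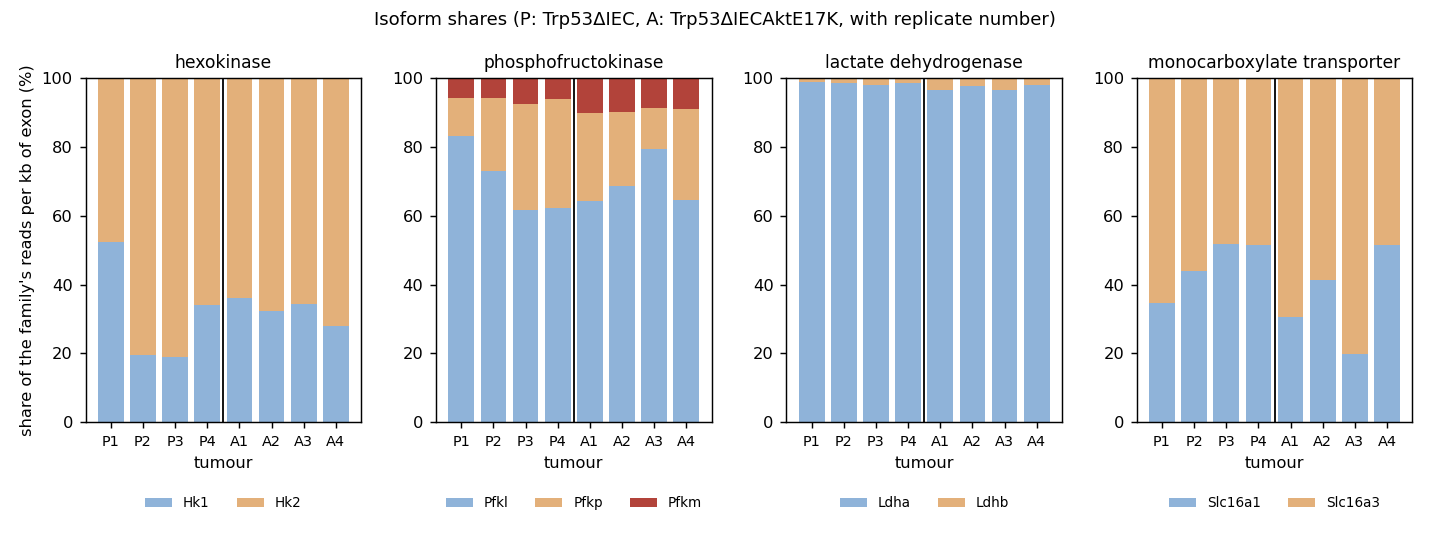
Share of each isoform in the reads per kilobase of exon of its family (vertical axis, percent) in each tumour, P for Trp53ΔIEC and A for Trp53ΔIECAktE17K with the replicate number. The Pfkm segment runs from 5.60% to 7.498% in the P tumours and from 8.73% to 10.2% in the A tumours.

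The genes of the oxygen-sensing machinery did not pass. Hif1a, the broadly expressed HIF alpha subunit, had 195.7, 370.2, 286.7 and 315.5 CPM in Trp53ΔIEC and 445.3, 373.3, 219.2 and 381.2 CPM in Trp53ΔIECAktE17K tumours, with overlap (edgeR adjusted p = 0.583). Epas1, which encodes HIF-2 alpha and is strong in endothelium, had 67.6 ± 8.28 and 83.3 ± 18.1 CPM (SD, n = 4 each, edgeR adjusted p = 0.351). Of 10 endothelium markers edgeR called 1 and DESeq2 4 as higher, 6 had an unadjusted p under 0.05 towards higher levels and 9 a log2 fold change above 0. Their sum was 241.2 to 400.3 CPM against 314.6 to 599.5 CPM, and their part in the Epas1 values was not tested. Egln1 (PHD2), the main prolyl hydroxylase, lay at 93.3 to 111.9 and 91.6 to 166.4 CPM. Its log2 fold change was 0.23 (edgeR adjusted p = 0.563), or -0.03 without Trp53ΔIECAktE17K replicate 1. Egln3 (PHD3), a hydroxylase that HIF itself induces, had 155.4, 211.1, 269.1 and 178.6 CPM against 314.4, 153.1, 76.1 and 227.9 CPM. The Trp53ΔIECAktE17K tumours held both the highest and the lowest of the 8 values (log2 fold change -0.08, edgeR adjusted p = 0.936). Its sign turned without Trp53ΔIEC replicate 3 (0.07) and without Trp53ΔIECAktE17K replicate 2 (0.0041) or 3 (0.20). None of these 4 genes reached an unadjusted p under 0.05 or was called by DESeq2 or limma-voom.

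The HIF-responsive genes had log2 fold changes of 0.43 to 1.30, and none of the 6 passed in edgeR, with 1 at an unadjusted p under 0.05, 1 called by DESeq2 and none by limma-voom. Adm, which encodes the vasodilator peptide adrenomedullin, had 16.5, 14.2, 12.9 and 15.7 CPM in Trp53ΔIEC and 46.0, 14.1, 55.0 and 30.9 CPM in Trp53ΔIECAktE17K tumours. Replicate 2 of Trp53ΔIECAktE17K lay at the level of the other group and the other 3 lay well above it. The log2 fold change was 1.30 ± 0.37 (SE, edgeR adjusted p = 0.0983, DESeq2 adjusted p = 0.0168), and without that replicate it was 1.55 and passed (edgeR adjusted p = 0.0269). Car9, the carbonic anhydrase of hypoxic cells, had 23.1, 14.5, 47.7 and 36.4 CPM against 99.7, 33.7, 44.8 and 57.6 CPM. Its groups overlapped, with replicate 1 of Trp53ΔIECAktE17K highest (log2 fold change 0.96 ± 0.44, SE, edgeR adjusted p = 0.258, and 0.55 without that replicate). Vegfa, the vascular growth factor, had 196.1, 63.6, 67.2 and 93.9 CPM against 231.7, 148.7, 176.2 and 122.1 CPM. Replicate 1 of Trp53ΔIEC lay above 3 of the 4 Trp53ΔIECAktE17K tumours (log2 fold change 0.69 ± 0.38, SE, edgeR adjusted p = 0.344). Without that library the log2 fold change was 1.17 (edgeR adjusted p = 0.0665).

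Ndrg1, a stress response gene induced by HIF, had 159.4, 84.9, 39.9 and 98.2 CPM in Trp53ΔIEC and 439.6, 93.0, 92.0 and 164.6 CPM in Trp53ΔIECAktE17K tumours. Replicate 1 of Trp53ΔIECAktE17K stood far above the rest. The log2 fold change was 1.04 with all tumours (edgeR adjusted p = 0.354), 0.26 without that replicate and -0.08 without replicates 1 and 4 together. Bnip3, a mitophagy receptor, had 43.8, 21.3, 14.0 and 26.5 CPM against 66.1, 23.7, 53.5 and 29.2 CPM, with overlap (log2 fold change 0.71 ± 0.43, SE, edgeR adjusted p = 0.383, and 0.40 to 1.06 over the removals of 1 tumour). Ankrd37, an ankyrin repeat gene induced by HIF, had 16.9, 6.58, 10.8 and 8.24 CPM against 27.9, 5.35, 9.57 and 14.4 CPM. Its log2 fold change was 0.43 (edgeR adjusted p = 0.682) and turned to -0.14 without Trp53ΔIECAktE17K replicate 1. The library kit does not mark strand, so reads from places where genes overlap cannot be told apart by strand. Reads counted as ambiguous were set aside. How reads in these overlaps were counted is not known, since the strand setting is not given. Exons of another annotated gene overlap 26.4% of the exon bases of Ankrd37, 22.3% of Bnip3, 15.3% of Pkm, 11.5% of Gpi1, 10.7% of Pfkm, 9.29% of Car9, 8.43% of Ndrg1, 8.11% of Hif1a and less in the other members.

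The differences were uneven across the Trp53ΔIECAktE17K tumours. Replicate 1 had the highest of the 8 values in 13 members, replicate 3 in 13, replicate 4 in 2 and replicate 2 in none. How many of all genes were highest in each tumour was not counted, so these counts cannot show a trait of the members. Measured against the Trp53ΔIEC mean, the members' median log2 ratio was 0.60 in replicate 1, 0.05 in replicate 2, 0.54 in replicate 3 and 0.29 in replicate 4. It lay between -0.15 and 0.05 in the Trp53ΔIEC tumours, whose ratios are held near 0 because these tumours form that mean. Replicates 1 and 3 differed in which genes stood out. Replicate 1 was highest for 8 of the 10 genes of oxygen sensing and hypoxia response (Hif1a, Egln1, Egln3, Car9, Vegfa, Ankrd37, Bnip3 and Ndrg1) and for Slc2a1, Pfkp, Pfkfb3, Pgam1 and Slc16a3. Replicate 3 was highest for the enzymes Gpi1, Pfkl, Pfkm, Aldoa, Tpi1, Pgk1, Eno1, Pkm, Ldha and Ldhb and for Slc2a3, Pdk1 and Adm. It was the lowest of all tumours for Hk1, Pfkfb4, Slc16a1 and Egln3. This split was seen in single tumours and has no replicate behind it. Squamous epithelium markers summed to 17449 CPM in replicate 1, 726.1 in replicate 2, 218.8 in replicate 3 and 2974 in replicate 4, against 109.3 to 270.2 CPM in Trp53ΔIEC tumours. Of 11 tested squamous markers 6 rose in edgeR, DESeq2 called 9 higher and limma-voom none. Their part in the high levels of replicate 1 was not tested. Without replicates 1 and 4 together edgeR called none of the 32 members, Pfkm included (log2 fold change 1.02, adjusted p = 0.0726).

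**Figure D4:**
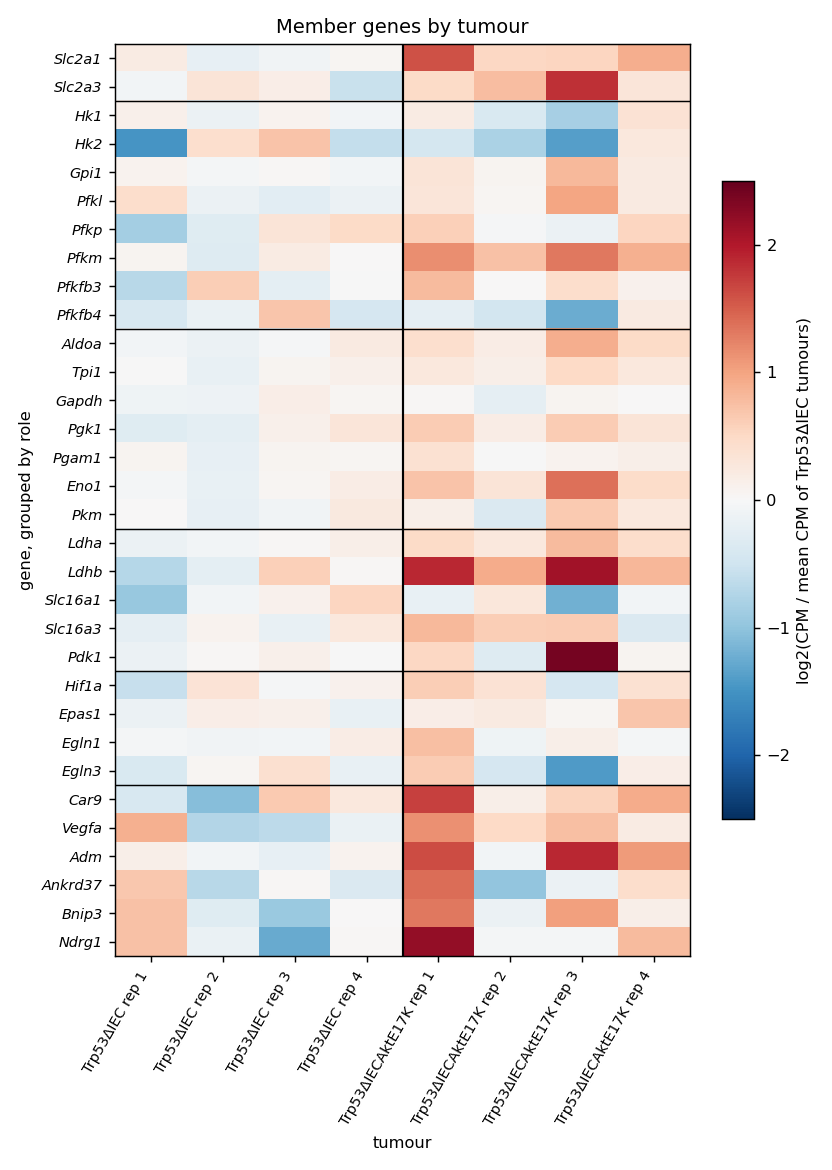
Log2 ratio of the CPM in each tumour (columns) to the mean CPM of the Trp53ΔIEC tumours for the 32 members (rows, in blocks by role, lines between blocks). Red is above and blue below that mean, and the columns of Trp53ΔIECAktE17K replicates 1 and 3 hold 13 of the row maxima each.

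Other genes of glucose metabolism and of the hypoxia response were read from lists of 80 symbols. Of these, 79 were in the tables and 74 were tested. The tested genes include the 32 further HIF pathway and hypoxia response genes described below. Over these lists 2 genes rose (2.7%, against 3.44% of all genes) and none fell (0.756% of all genes). An unadjusted p under 0.05 was reached by 14 towards higher levels (18.9%, against 12.8% of all genes) and by 7 of 74 towards lower levels (8.07% of all genes). DESeq2 called 8 higher and 5 lower, against 8.31% and 3.7% of all genes it tested, and limma-voom 1 higher. The lists hold 16 tested tissue-restricted glycolytic isoforms, with log2 fold changes above 0 for 8 and below 0 for 8. DESeq2 called 3 of the 16 higher and 2 lower. Lower were Eno3, the muscle-type enolase gene (log2 fold change -1.62, edgeR adjusted p = 0.121), and Pfkfb2 (-0.73, edgeR adjusted p = 0.0868). Eno3 had 68.2 to 193.4 CPM in Trp53ΔIEC and 14.0 to 68.0 CPM in Trp53ΔIECAktE17K tumours. None of 18 genes of pyruvate entry into mitochondria and gluconeogenesis passed in edgeR, with 1 and 2 at an unadjusted p under 0.05 towards higher and lower levels, 2 called lower by DESeq2 and none by limma-voom. These 2 were Pdp2, a phosphatase that activates pyruvate dehydrogenase, and Pdk4, a kinase that inactivates it. Pdp2 had 10.6 to 17.4 CPM in Trp53ΔIEC and 6.42 to 9.27 CPM in Trp53ΔIECAktE17K tumours (log2 fold change -0.94, edgeR adjusted p = 0.0636). Pdk4 had 15.9 to 25.1 and 2.90 to 15.2 CPM (log2 fold change -1.41, edgeR adjusted p = 0.142).

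None of 8 pentose phosphate genes passed in edgeR, DESeq2 or limma-voom, and none had an unadjusted p under 0.05. Rpia, which isomerises ribose 5-phosphate, had 51.2 ± 9.59 and 36.8 ± 9.40 CPM (SD, n = 4 each, edgeR adjusted p = 0.257). Taldo1, the transaldolase, had 854.5 CPM in Trp53ΔIECAktE17K replicate 3 and 211.8 to 322.5 CPM in the other 7 tumours.

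Among 32 tested further HIF pathway and hypoxia response genes 1 rose (3.1%), near the 3.44% of all genes called higher. This gene was Plod2, an enzyme that hydroxylates lysines of collagen and responds to hypoxia and to TGF-beta. Plod2 had 21.2, 8.46, 12.0 and 17.0 CPM in Trp53ΔIEC and 86.6, 51.6, 47.8 and 41.1 CPM in Trp53ΔIECAktE17K tumours. The groups lay far apart (log2 fold change 1.95 ± 0.34, SE, edgeR adjusted p = 0.0252). In the removals of 1 tumour the call held without Trp53ΔIEC replicate 1 or without Trp53ΔIECAktE17K replicate 3 or 4, and in the other 5 the adjusted p was up to 0.0781. With the letter term it was lost (log2 fold change 1.602, adjusted p = 0.119). The fibroblast marker sums given above moved with it, and their part was not tested. Of the list, 9 genes had an unadjusted p under 0.05 towards higher levels (28.1%, against 12.8% of all genes) and 2 towards lower, and its median log2 fold change was 0.24 against 0.01 over all genes. Chosen after their values were seen, P4ha1, a collagen prolyl hydroxylase, Mif, a cytokine gene, and Car12, a membrane carbonic anhydrase, had log2 fold changes of 0.78, 0.80 and 2.31. They missed the threshold in edgeR (adjusted p = 0.0525, 0.0564 and 0.0977), with all 4 Trp53ΔIECAktE17K tumours above all Trp53ΔIEC tumours for each gene. Hif1an, the asparaginyl hydroxylase that restrains HIF, was also picked out by its values. It had 89.1, 86.5, 77.0 and 76.1 CPM in Trp53ΔIEC and 61.3, 57.1, 60.6 and 68.5 CPM in Trp53ΔIECAktE17K tumours. All 4 lay below the other group (log2 fold change -0.41 ± 0.11, SE), and the gene was called lower by DESeq2 and not by edgeR (adjusted p = 0.0811).

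**Figure D5:**
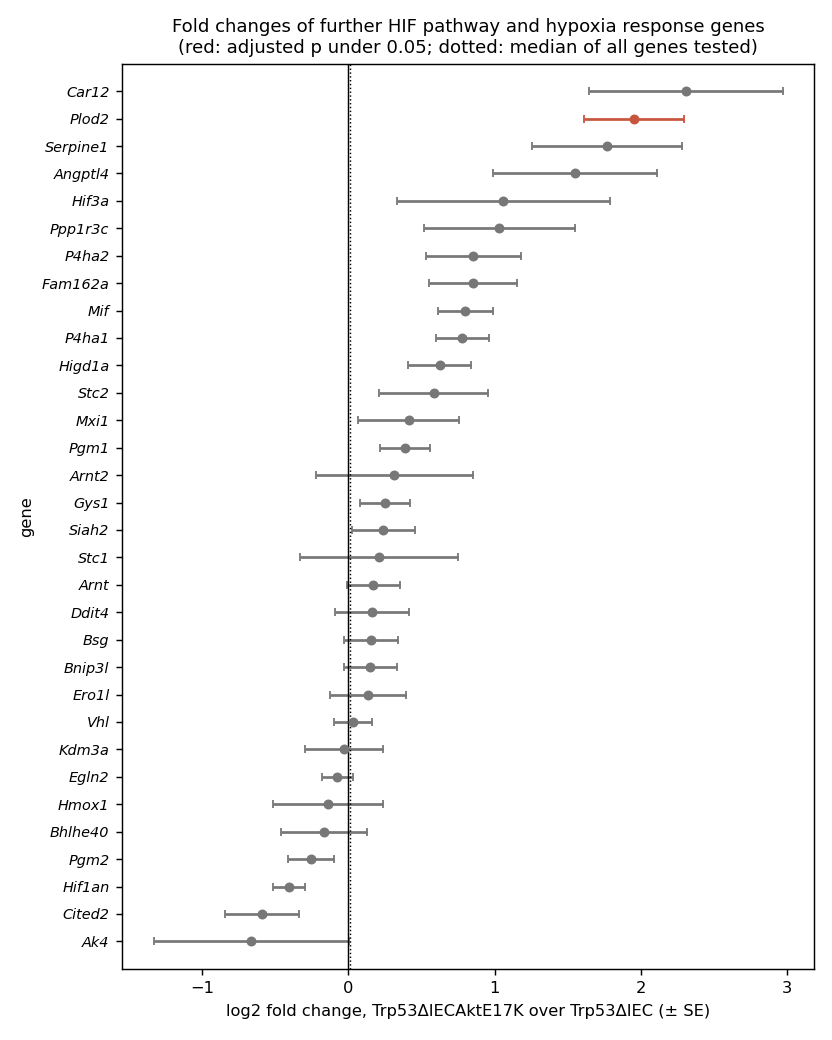
Log2 fold change (points) with its standard error (bars) for 32 further HIF pathway and hypoxia response genes, Trp53ΔIECAktE17K over Trp53ΔIEC, from highest to lowest. Plod2, in red at 1.95, passed the test, and 24 of the 32 points (75%) lie above 0, against 51.1% of all genes tested.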

How the data were processed

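RNA from 8 whole colon tumours (RNeasy Mini Kit) was sequenced from TruSeq mRNA v2 libraries, per the labels' protocols. The authors deposited raw counts, the reads per Ensembl gene in each tumour. The build was mm10, per the submitters' processing notes, which also list HTSeq 0.6, SAMtools 1.2, STAR 2.3.0, CASAVA 1.8.2 and DESeq2 1.8.1 without roles. Annotation release, read length and strand setting: not given in the sources used here. The closing lines of each table, which name no gene, were set aside. They hold reads in no feature (9.74% to 11.7% of uniquely aligned reads), ambiguous reads (1.93% to 2.32%) and multiply aligned reads (0.693 to 0.916 alignments per assigned read).

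Symbols, positions and lengths came from GENCODE M21 (GRCm38), which held 36602 of 38355 identifiers (95.4%). Genes were kept with filterByExpr (minimum count 10), scaled by TMM and tested with edgeR 4.0.16 (R 4.3.3) by the robust quasi-likelihood F-test, genotype being the only term, with all 8 tumours. The code was tested on simulated data. Alternatives were DESeq2 1.42.0, limma-voom (limma 3.58.1), other scalings, no filter, a replicate block, a term for the letter in each sample's title, and leaving out tumours. The mice are separate, so p-values measure variation between mice. The members, the lists and the rule for named genes were chosen with earlier results of these data known. All members are named. Of each pathway list the called genes are named (at most 6), or else the 2 with the smallest p. The result of 1 called gene of these lists is not reported here.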

Additional observations from a re-analysis of the deposited data

Results flagged for a closer look

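For each of the 32 members and each group, the highest and the lowest tumour were compared with the other 3. In 5 of the 64 groups of 4 tumours 1 value stood so far from the rest that its gap to the nearest other, divided by the group's range, passed Dixon's 95% critical value, which chance passes in about 1 in 20 groups. Pdk1 had 309.2 CPM in Trp53ΔIECAktE17K replicate 3, against 47.2 to 84.9 CPM in the other 3 tumours. Pfkl had 395.2 CPM in Trp53ΔIEC replicate 1, and Pfkfb4 had 45.4 CPM in Trp53ΔIEC replicate 3. Egln1 had 111.9 CPM in Trp53ΔIEC replicate 4. Pgam1 had 12.7 CPM in Trp53ΔIEC replicate 2, below the other 3.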

How the results depend on the processing

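No pairing of tumours by replicate number was seen. The deviations of same-numbered tumours from their group means correlated at -0.04, 0.01, -0.24 and 0.01. No Trp53ΔIEC tumour correlated best with the Trp53ΔIECAktE17K tumour of its number. With so few tumours these correlations cannot exclude that same-numbered samples were handled together. With the replicate block 50 genes were called over all genes tested, 0 members and 0 further pathway genes, against 694, 1 and 2 without it. With a term for the title's letter, whose meaning the labels do not give, the counts were 96, 0 and 0. Letter A occurs only in Trp53ΔIECAktE17K tumours, so with this term the genotype difference rests on the tumours of letter B. DESeq2 called 2479 genes, 6 members and 13 pathway genes. Without Trp53ΔIECAktE17K replicates 1 and 4 together 0 members were called. Pathway genes called were 1 with DESeq2 size factors, without the filter or in limma-voom, and 4 with upper-quartile scaling. When 1 tumour was left out, 74 to 949 genes, 0 to 2 members and 0 to 4 pathway genes were called, fewest over all genes without Trp53ΔIEC replicate 2. The members' median log2 fold change was then 0.33 to 0.49. No member was called lower in any of these fits.

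Log2 fold changes changed sign in 17 pairs of gene and setting, of genes that were not called. Gapdh went to 0.018 with upper-quartile scaling and 0.042 with the letter term. Without Trp53ΔIECAktE17K replicates 1 and 4 together Pfkp went to -0.12, Hif1a to -0.0040, Egln1 to -0.0046, Ankrd37 to -0.54 and Ndrg1 from 1.04 to -0.075. Leaving out 1 tumour gave -0.069 to 0.017 for Gapdh, -0.29 to 0.10 for Hk1, -0.42 to 0.033 for Slc16a1, -0.027 to 0.31 for Egln1, -0.44 to 0.20 for Egln3 and -0.14 to 0.74 for Ankrd37. The Pfkm call was lost with the block (adjusted p = 0.0777), with the letter term (0.0987) and in 5 of 8 removals of 1 tumour. With the length of the longest transcript the Pfkm share was 4.27% in Trp53ΔIEC and 6.51% in Trp53ΔIECAktE17K tumours. The mean Hk2 share of the hexokinase pair was then 55.8% and 52.8%, against 68.7% and 67.3% per kilobase of exon. The cause of these shifts was not tested.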
